A study of Mus musculus with 30 samples.

Results

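The 10 insulin and insulin-like growth factor (IGF) signalling genes Insr, Irs1, Irs2, Akt2, Foxo1, Igf1, Igf1r, Igfbp1, Igfbp3 and Igfbp5 were followed through kidney and retina RNA of mice with and without diabetes and with and without Camk2d, the gene of the delta form of calcium/calmodulin-dependent kinase II. They are 10 of the 55385 genes in the deposited tables, and all 10 passed the expression filter in each organ. They were taken by name and not by a rule on their values, but with earlier results of these data known. The animals were 16 weeks old. Non-diabetic animals were Lepr(+/+) and diabetic animals were Lepr(db/db), which lack the signalling form of the leptin receptor, and each state was combined with either wild-type Camk2d or a CAMK2D knockout in the whole body. Each of the 4 kidney groups had 4 libraries. Among the retinas 4 were from diabetic wild-type and 4 from non-diabetic knockout animals, and the remaining groups had 3 each. Both organs were sequenced from 9 of the 21 animals, and a library's name joins K (kidney) or R (retina) to its animal's number. Levels are CPM, the counts relative to library size, which was scaled by the trimmed mean of M values within an organ.

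Insulin and IGF1 are circulating ligands that activate the related receptor tyrosine kinases INSR and IGF1R. The receptors phosphorylate the adaptor proteins IRS1 and IRS2, which recruit phosphoinositide 3-kinase and so lead to activation of the kinase AKT2. Active AKT keeps the transcription factor FOXO1 out of the nucleus, and when insulin action is low FOXO1 raises genes of fasting and glucose production, of which Irs2 and Igfbp1 are classical examples in liver. IGF-binding proteins such as IGFBP1, IGFBP3 and IGFBP5 hold IGFs in blood and tissue and set how much reaches the receptor. In kidney the proximal tubule makes glucose, and in retina both receptors are present in neurons and vessels.

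The libraries were checked first. They held 19870485 to 22643055 counts each. No knockout kidney exceeded 0.557 CPM of Camk2d, where wild-type kidneys had at least 10.3 CPM, and no knockout retina exceeded 4.25 CPM, where wild-type retinas had at least 285 CPM. The proximal tubule markers summed to 4379 to 11892 CPM in kidney and the rod markers to 40464 to 56106 CPM in retina, so the defining markers of each labelled organ were present. Mitochondrial transcripts were highest in kidneys K591 and K861 (45.4% and 36.4% of counts), followed by K587 (31.9%), K588 (31.5%) and K560 (29.2%). The other kidneys had 22.0% to 26.1%. Diabetic wild-type kidneys had 24.5% to 26.1% and diabetic knockout kidneys 22.2% to 45.4%, so this share differed between the diabetic genotypes. Lens markers summed to 532 to 1586 CPM in 5 retinas (R587, R588 and R591, all knockout diabetic, and R812 and R819, wild-type non-diabetic) and to 79.8 to 217 CPM in the other 9. Fat markers other than Pck1 and Lpl, which kidney tubules express, summed to 120 to 1762 CPM in wild-type non-diabetic kidneys and to 30.1 to 108 CPM in wild-type diabetic kidneys. In whole-organ RNA, fewer cells of a type and less RNA per cell cannot be told apart.

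In kidney the clearest movements belonged to Igf1, the ligand, and to Foxo1, the transcription factor at the end of the pathway. Diabetic wild-type kidneys held less Igf1 and more Foxo1 transcript than non-diabetic ones, and the mean of the diabetic knockout kidneys lay between theirs for both genes. In wild-type kidneys 2 of the 10 genes passed an adjusted p of 0.05 (edgeR's quasi-likelihood test with Benjamini-Hochberg adjustment over all genes), where 7.29% of all 18177 genes tested were called. In diabetic kidneys 4 of the 10 were called between genotypes, where 19.7% of all genes were called, so calls were common there. The median difference of the 10 genes was 0.26 on the log2 scale in the first comparison and -0.34 in the second, beside -0.05 and 0.04 over all genes.

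**Figure D1:**
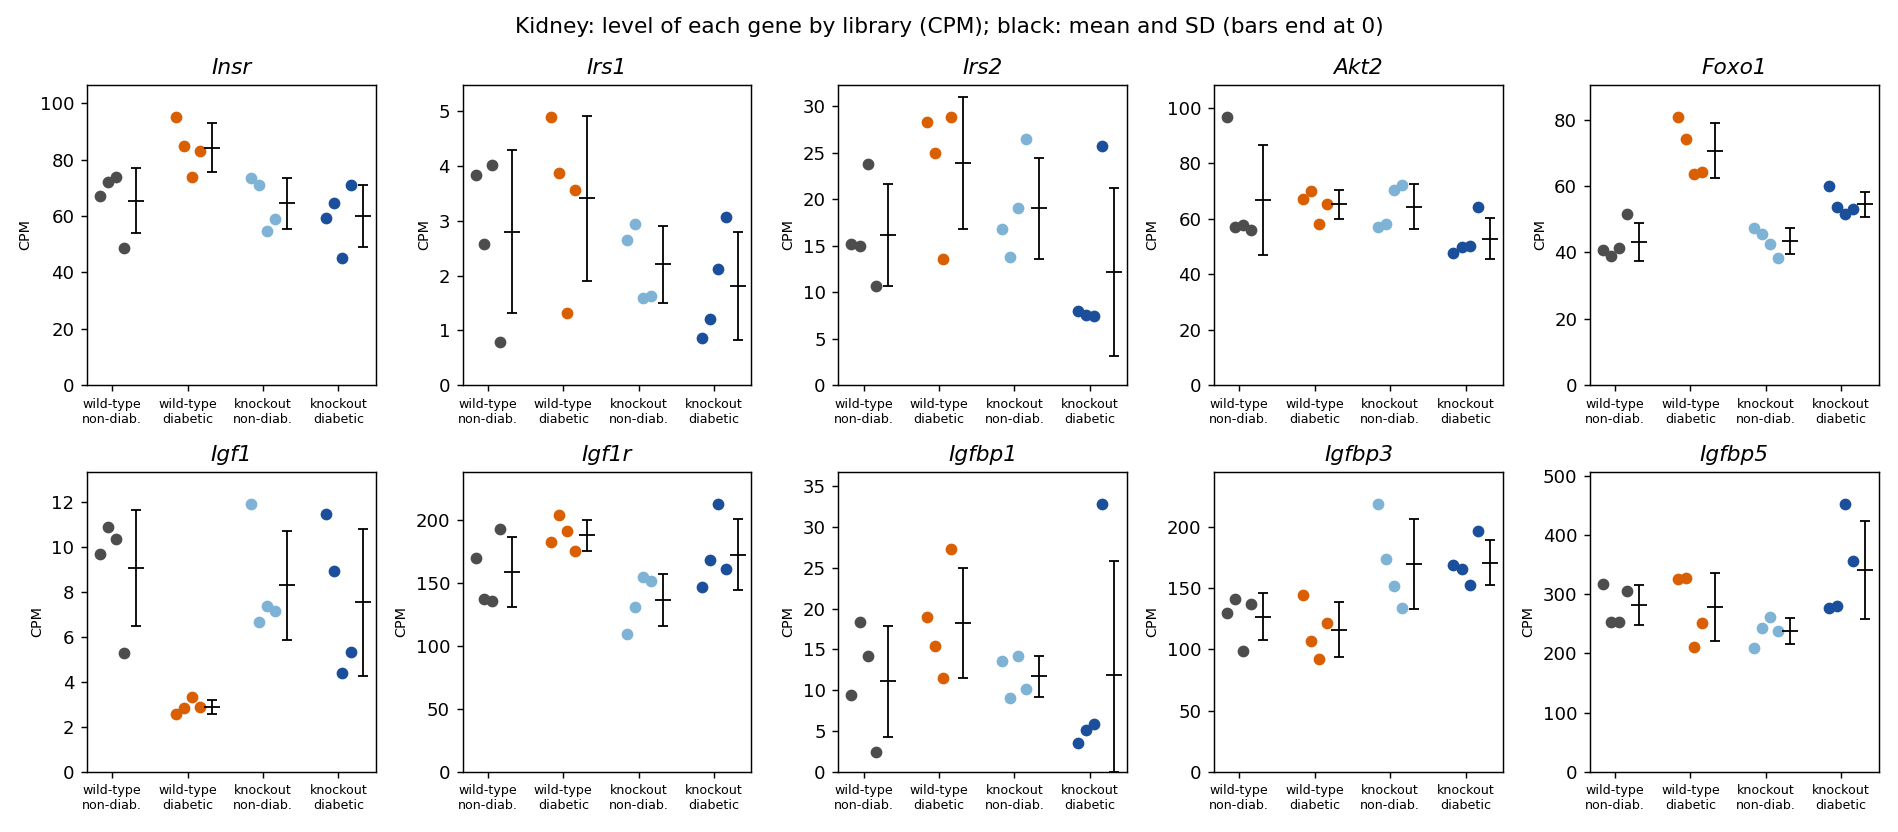
Kidney level of each of the 10 genes in CPM (vertical axis, starting at 0) by group (horizontal axis). Each point is a library (n = 4 per group) and the black mark with bars is the group mean and SD. Igf1 in the 4 diabetic wild-type kidneys sits between 2.56 and 3.32 CPM, below every other kidney, and K596 stands above the other 3 diabetic knockout kidneys for Irs2 and Igfbp1.

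Igf1 (ENSMUSG00000020053.18, chromosome 10, 87858265 to 87937042, plus strand, GRCm38, as are all coordinates here) encodes the ligand IGF1, which most organs make in small amounts beside the larger supply from liver. In the wild-type non-diabetic kidneys Igf1 lay at 9.68, 10.9, 10.4 and 5.27 CPM, and in the wild-type diabetic kidneys at 2.56, 2.83, 3.32 and 2.86 CPM. In CPM every diabetic kidney was below every non-diabetic one. The difference was -1.65 ± 0.30 (log2, SE), with an edgeR adjusted p of 0.00638, a 3.13-fold lower level. The call held with each kidney library left out in turn (adjusted p 0.00388 to 0.0294). It was lost on the scale of log2(TPM + 1), where the difference was -0.65 (limma adjusted p = 0.317). In TPM the groups overlapped, since K861 held 0.587 TPM and the wild-type diabetic kidneys 1.01 to 1.64 TPM. The call was lost too with the fat markers other than Pck1 and Lpl as a covariate (difference -0.79, edgeR adjusted p = 0.257). With the full fat list as a covariate it was kept.

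In the knockout the picture for Igf1 differed in its values. Knockout non-diabetic kidneys held 11.9, 6.68, 7.40 and 7.17 CPM and knockout diabetic kidneys held 11.5, 8.95, 4.41 and 5.32 CPM, and these groups overlapped (log2 difference -0.14 ± 0.29, edgeR adjusted p = 0.824). In CPM all 4 diabetic knockout kidneys were above all 4 diabetic wild-type kidneys, with a difference of 1.38 ± 0.30 (edgeR adjusted p = 0.0119). That call held with each library left out (adjusted p 0.00209 to 0.0462), but not on log2(TPM + 1), where the difference was 0.42 (limma adjusted p = 0.380). Nor did it hold with all fat markers, Pck1 and Lpl included, as a covariate (1.21, edgeR adjusted p = 0.722). The call did hold with the fat markers other than Pck1 and Lpl as a covariate. Those summed to 58.8 CPM in diabetic knockout and 57.5 CPM in diabetic wild-type kidneys. The full list summed to 2345 and 4957 CPM, mostly Pck1 and Lpl, and Pck1 was itself lower in the diabetic knockout. In TPM K591, at 1.25, lay within the range of the diabetic wild-type kidneys (1.01 to 1.64). The test of the difference itself, whether the knockout changed the response to diabetes, gave 1.51 ± 0.42 with an edgeR adjusted p of 0.0772, so a genotype dependence of the Igf1 response was not called. DESeq2 called it (adjusted p = 0.0200), as did edgeR with sex as a covariate (adjusted p = 0.0366) or without K596 (adjusted p = 0.0122). On log2(TPM + 1) it was 0.34 (limma adjusted p = 0.667), and with the fat markers other than Pck1 and Lpl as a covariate 0.89 (edgeR adjusted p = 0.178).

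Macrophage transcripts, like Igf1, were lowest in the diabetic wild-type kidneys. The 8 macrophage and microglia markers, all above 0.1 CPM on average in both wild-type kidney groups, summed to 88.0 ± 26.0 CPM (SD, n = 4, range 64.5 to 124) in wild-type non-diabetic kidneys and to 36.1 ± 9.96 CPM (range 29.7 to 50.9) in wild-type diabetic kidneys. They summed to 103 ± 19.9 CPM (range 88.3 to 133) in knockout non-diabetic and 109 ± 18.8 CPM (range 90.8 to 134) in knockout diabetic kidneys. As for Igf1, the diabetic wild-type kidneys were the lowest group and did not overlap with the others. The order of the other groups was the reverse of that of Igf1. Mean Igf1 was 9.06 CPM in wild-type non-diabetic, 8.29 in knockout non-diabetic and 7.53 in knockout diabetic kidneys. The part of the macrophage markers in the Igf1 result was not tested. Over the 16 kidneys, the 3 genes whose pattern was most like that of Igf1 were Mmp11 (Pearson r = 0.93), Ifi27l2a (r = 0.91) and Kcnk2 (r = 0.91), out of 12858 genes ranked.

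Foxo1 (ENSMUSG00000044167.6, chromosome 3, 52268336 to 52353221, plus strand), the transcription factor that AKT restrains, lay at 40.7, 39.0, 41.3 and 51.6 CPM in wild-type non-diabetic kidneys and at 80.8, 74.0, 63.5 and 64.3 CPM in wild-type diabetic kidneys. The groups did not overlap, and the difference was 0.71 ± 0.12 (log2, SE; edgeR adjusted p = 0.00448), a 1.64-fold higher level. Leaving out each library kept the call (adjusted p 0.00298 to 0.0208). On log2(TPM + 1) the difference was as large, 0.73, but was not called (limma adjusted p = 0.0653). With the fat markers other than Pck1 and Lpl as a covariate it was 0.66 and not called (edgeR adjusted p = 0.112). The full fat list as a covariate kept the call.

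Knockout diabetic kidneys held 60.0, 53.6, 51.4 and 53.0 CPM of Foxo1, all above the knockout non-diabetic kidneys (47.3, 45.5, 42.6 and 38.3 CPM). That difference was 0.33 ± 0.12 and did not pass the test over all genes (edgeR adjusted p = 0.299). The same 4 kidneys were all below the diabetic wild-type kidneys, by -0.37 ± 0.12 (edgeR adjusted p = 0.0423). This call was narrow, since 10 of the 16 fits that left out 1 library lost it (highest adjusted p 0.149, without K597). The interaction was -0.38 ± 0.17 (edgeR adjusted p = 0.155). The proximal tubule markers, which include Lrp2 and Slc34a1, summed to 9969 ± 1623 CPM in diabetic wild-type, 7230 ± 1087 in non-diabetic wild-type and 5700 ± 1541 in diabetic knockout kidneys, so they too were highest in the diabetic wild-type group, and their part in the Foxo1 result was not tested. Agfg2, Maco1 and Abcd4 (r = 0.92, 0.92 and 0.91 over 16 kidneys) had the patterns most like that of Foxo1.

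The receptors moved less. Insr (ENSMUSG00000005534.10, chromosome 8, 3122061 to 3279617, minus strand), the insulin receptor, lay at 67.2, 72.1, 73.7 and 48.8 CPM in wild-type non-diabetic and at 95.1, 84.7, 73.9 and 83.0 CPM in wild-type diabetic kidneys. The groups just failed to overlap, and the difference of 0.36 ± 0.16 was not called (edgeR adjusted p = 0.163). Diabetic knockout kidneys held 59.4, 64.4, 45.1 and 71.0 CPM, all below the diabetic wild-type kidneys, with a difference of -0.49 ± 0.16 (edgeR adjusted p = 0.0478). Only 3 of the 16 fits that left out a library kept this call (adjusted p 0.0186 to 0.142), and with the mitochondrial share as a covariate the difference was -0.28 (adjusted p = 0.251). K591, the lowest kidney for Insr, was also the one with the largest mitochondrial share. Clrn3 and Ambra1 were among the genes that followed Insr most closely over the kidneys (r = 0.95 and 0.94). Igf1r (ENSMUSG00000005533.10, chromosome 7, 67952827 to 68233668, plus strand), the IGF1 receptor, stayed between 110 and 213 CPM in all 16 kidneys, and none of its 4 differences between groups was called (log2 differences from -0.22 to 0.34, edgeR adjusted p from 0.312 to 0.997).

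The substrate genes varied widely within groups. Irs1 (ENSMUSG00000055980.2, chromosome 1, 82233101 to 82291416, minus strand) was low, from 0.785 to 4.89 CPM over the kidneys, and no difference was called. Irs2 (ENSMUSG00000038894.7, chromosome 8, 10984681 to 11008458, minus strand), whose transcription insulin lowers in liver, lay at 15.1, 15.0, 23.7 and 10.7 CPM in wild-type non-diabetic and at 28.3, 24.9, 13.6 and 28.8 CPM in wild-type diabetic kidneys. These groups overlapped through K844 (13.6 CPM), and the difference was 0.57 ± 0.39 (edgeR adjusted p = 0.339). Knockout non-diabetic kidneys held 16.8, 13.7, 19.0 and 26.5 CPM.

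Among the diabetic knockout kidneys 3 agreed closely in Irs2 and 1 did not. K587, K588 and K591 held 8.0, 7.49 and 7.43 CPM, the 3 lowest values of any kidney, and K596 held 25.7 CPM. With all libraries the difference from diabetic wild-type kidneys was -0.97 ± 0.39 and was not called by edgeR (adjusted p = 0.0810), while DESeq2 called it (adjusted p = 0.0427). Without K596 it was -1.62 (edgeR adjusted p = 0.00148), and the diabetes effect in the knockout was then also called, at -1.30 (adjusted p = 0.0244), as was the interaction, at -1.88 (adjusted p = 0.00681). With the mitochondrial share as a covariate the difference between diabetic genotypes was -0.59 (edgeR adjusted p = 0.288). With all fat markers, Pck1 and Lpl included, as a covariate it turned to 0.016 and was not called. K596 had 0.0864 CPM of Camk2d, the lowest of the knockout kidneys, so its knockout label held in its transcripts. Its Lepr level was 1.51 CPM, beside 0.665 to 1.38 CPM in the other 3 and 2.45 to 3.80 CPM in knockout non-diabetic kidneys. The mitochondrial share split the same kidneys, at 22.2% of counts in K596 and 31.9%, 31.5% and 45.4% in K587, K588 and K591. Which of them better represents the knockout was not tested.

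Igfbp1 (ENSMUSG00000020429.7, chromosome 11, 7197782 to 7202546, plus strand), a binding protein that insulin represses in liver, split the same libraries. It lay at 3.5, 5.10 and 5.80 CPM in K587, K588 and K591 and at 32.8 CPM in K596, the highest of any kidney. Wild-type diabetic kidneys held 18.9, 15.4, 11.4 and 27.3 CPM, wild-type non-diabetic kidneys 9.46, 18.3, 14.2 and 2.41 CPM, and knockout non-diabetic kidneys 13.5, 9.08, 14.2 and 10.1 CPM. With K596 the difference between diabetic genotypes was -0.62 ± 0.62 (edgeR adjusted p = 0.464) and without it -1.91 (adjusted p = 0.00739). It turned to 1.26 with all fat markers, Pck1 and Lpl included, as a covariate (adjusted p = 0.834). With the mitochondrial share as a covariate it was -0.073 (adjusted p = 0.943).

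Over all 16 kidneys Irs2 and Igfbp1 went up and down together. On log2(CPM + 0.5), Pearson's r was 0.81 and Spearman's rho 0.81 (permutation tests with 100000 draws, Benjamini-Hochberg adjusted p = 0.0090 and 0.0216 over the 90 gene pairs computed in both organs). The relation was as strong with the group means removed (r = 0.80) and without K596 (r = 0.81). So it was without K591 and K861 (r = 0.83) and without the 2 kidneys farthest from the median of Irs2 (r = 0.80). K591, K861, K587 and K588 were the lowest kidneys in both genes and had the largest mitochondrial shares (45.4%, 36.4%, 31.9% and 31.5% of counts). The part of the mitochondrial share in this relation was not tested. Of the 45 gene pairs in kidney 6 had an adjusted p under 0.05 for Pearson's r, and of the 45 in retina 0 had. The share over pairs of all genes was not computed, so this count does not set these genes apart. The draws shuffled libraries across groups, so differences between groups can also give a small p. Igfbp1 was in 3 of the 6, with Irs2, Irs1 (r = 0.74) and Insr (r = 0.69), and the others were Insr with Irs1 (r = 0.70), Igf1 with Igf1r (r = -0.74) and Foxo1 with Igf1 (r = -0.75). For Foxo1 with Igf1, r was -0.09 once the group means were removed, so that relation rested on the differences between groups. Without the 2 kidneys farthest from the median, r fell to 0.54 for Insr with Igfbp1 and to 0.52 for Irs1 with Igfbp1.

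**Figure D2:**
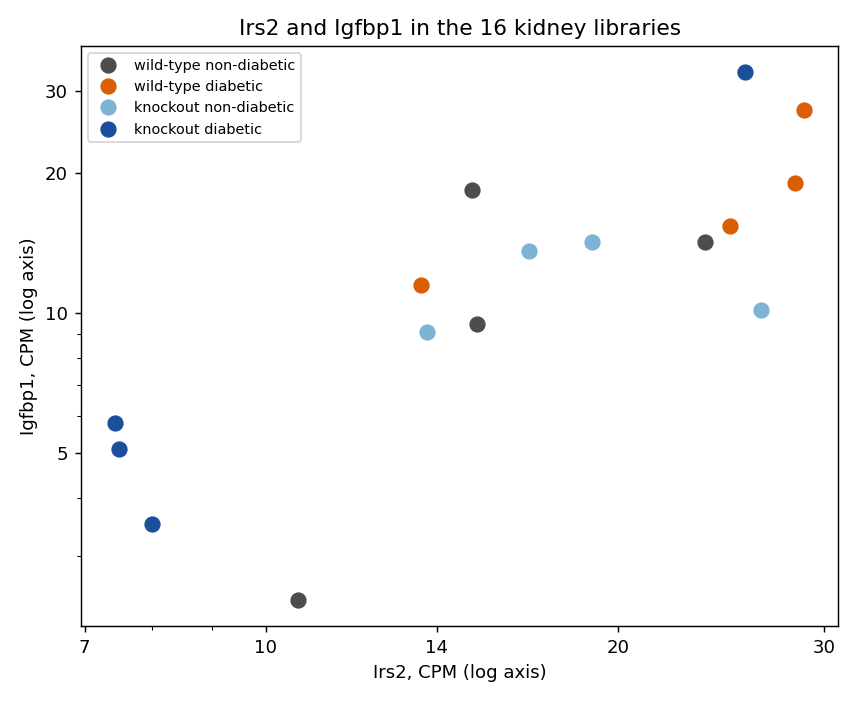
Igfbp1 against Irs2 in the 16 kidney libraries, both in CPM on log axes and coloured by group. The points rise together (Pearson r = 0.81 on log2(CPM + 0.5)), and 3 of the 4 diabetic knockout kidneys lie at the left, between 7.43 and 8.0 CPM of Irs2, while the other lies at the top right.

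The upstream regions of Irs2, Igfbp1 and Irs1 are shown, the only ones of the 9 genes searched that held a match to either motif below. In kidney Igfbp1 went with Irs2 and with Irs1. Irs1 with Irs2 was not called (r = 0.67, permutation test, adjusted p = 0.0564). FOXO proteins bind a core of the letters GTAAACA, and the insulin response sequence known from Igfbp1 has the letters CAAAACA. Each was searched on both strands in the 250 bases before the RefSeq start (GRCm38.p6). Promoter entries were matched for 9 of the 10 genes, and Insr, which went with Igfbp1 and Irs1 in kidney, had none. CAAAACA, or TGTTTTG on the other strand, was found in Igfbp1 (108 bases before the start), Irs2 (37 bases before it) and Irs1 (111 and 32 bases before it), and is in capitals in the sequences, which read 5′ to 3′ on the strand of the gene. GTAAACA was found in none of the 9. Of 32851 RefSeq promoters of this length, 5.56% hold CAAAACA and 3.17% hold GTAAACA, and the motifs do not share a full match. Such a match is a description of the letters and not of binding.
Igfbp1, chr11:7197537-7197786, plus strand: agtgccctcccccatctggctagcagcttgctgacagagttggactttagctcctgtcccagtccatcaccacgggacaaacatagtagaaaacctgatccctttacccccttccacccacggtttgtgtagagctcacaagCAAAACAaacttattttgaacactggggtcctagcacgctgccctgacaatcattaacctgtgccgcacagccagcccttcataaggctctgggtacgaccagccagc
Irs2, chr8:11008930-11009179, minus strand: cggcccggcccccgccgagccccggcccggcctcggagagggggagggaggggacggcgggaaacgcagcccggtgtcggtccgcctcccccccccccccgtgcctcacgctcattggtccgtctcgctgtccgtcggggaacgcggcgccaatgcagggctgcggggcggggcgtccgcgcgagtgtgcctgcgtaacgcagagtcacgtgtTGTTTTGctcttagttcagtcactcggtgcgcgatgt
Irs1, chr1:82291440-82291689, minus strand: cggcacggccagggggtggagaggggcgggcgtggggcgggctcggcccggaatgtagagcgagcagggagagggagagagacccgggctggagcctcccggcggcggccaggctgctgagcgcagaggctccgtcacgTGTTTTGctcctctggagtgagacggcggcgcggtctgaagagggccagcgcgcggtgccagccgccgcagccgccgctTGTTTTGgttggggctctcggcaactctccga

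Igfbp3 (ENSMUSG00000020427.11, chromosome 11, 7206086 to 7213923, minus strand), a carrier of IGFs in blood and tissue, is the neighbour of Igfbp1 and differed in level between the diabetic genotypes. Its log2 levels did not follow those of Igfbp1 over the kidneys (r = -0.08). Diabetic wild-type kidneys held 144, 107, 92.0 and 121 CPM and diabetic knockout kidneys 169, 165, 153 and 197 CPM, without overlap, and the difference was 0.56 ± 0.18 (edgeR adjusted p = 0.0421). The call was kept in 7 of 16 fits without 1 library (adjusted p 0.0316 to 0.117) and in 4 of 10 other alternatives. Its lowest value was 0.30 on log2(TPM + 1) (limma adjusted p = 0.437). Its highest adjusted p was 0.869, with all fat markers, Pck1 and Lpl included, as a covariate (0.52). In non-diabetic kidneys the values were 130, 141, 98.7 and 137 CPM in the wild-type and 219, 174, 152 and 134 CPM in the knockout. That difference, 0.42 ± 0.18, was not called (edgeR adjusted p = 0.724). The 8 endothelium markers summed to 313 ± 26.3 CPM (range 286 to 338) in diabetic wild-type and 414 ± 69.6 CPM (range 341 to 505) in diabetic knockout kidneys, and the 8 fibroblast and mural cell markers to 166 ± 27.4 (range 138 to 201) and 284 ± 48.0 CPM (range 213 to 314). Both sums were without overlap, as was Igfbp3, and their part in its result was not tested. Ccn4 (r = 0.90), Ak5 (r = 0.83) and Hjurp (r = 0.82) had the patterns most like that of Igfbp3.

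Igfbp5 (ENSMUSG00000026185.8, chromosome 1, 72857932 to 72874884, minus strand), a binding protein held in tissue matrix, and Akt2 (ENSMUSG00000004056.15, chromosome 7, 27591552 to 27640826, plus strand), the insulin-activated kinase, were not called in kidney. Igfbp5 lay at 209, 244, 262 and 238 CPM in knockout non-diabetic kidneys and at 277, 280, 453 and 357 CPM in knockout diabetic kidneys, a difference of 0.52 ± 0.19 without overlap (edgeR adjusted p = 0.297). In the wild-type its levels overlapped between 253 to 317 and 211 to 327 CPM. Akt2 lay between 47.5 and 72.1 CPM in 15 kidneys and at 96.7 CPM in K812. In the knockout kidneys 0 of the 10 genes were called for diabetes (2 at an unadjusted p under 0.05, 0 with DESeq2 and 0 with limma), where 0.077% of all genes were called. For the knockout in non-diabetic kidneys the count was also 0 (1 at an unadjusted p under 0.05, 0 with DESeq2 and 0 with limma), where 0.435% of all genes were called. The interaction gave 0 of 10 with edgeR (3 at an unadjusted p under 0.05, 1 with DESeq2 and 0 with limma), where 0% of all genes were called, beside 1640 genes called by DESeq2.

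**Figure D3:**
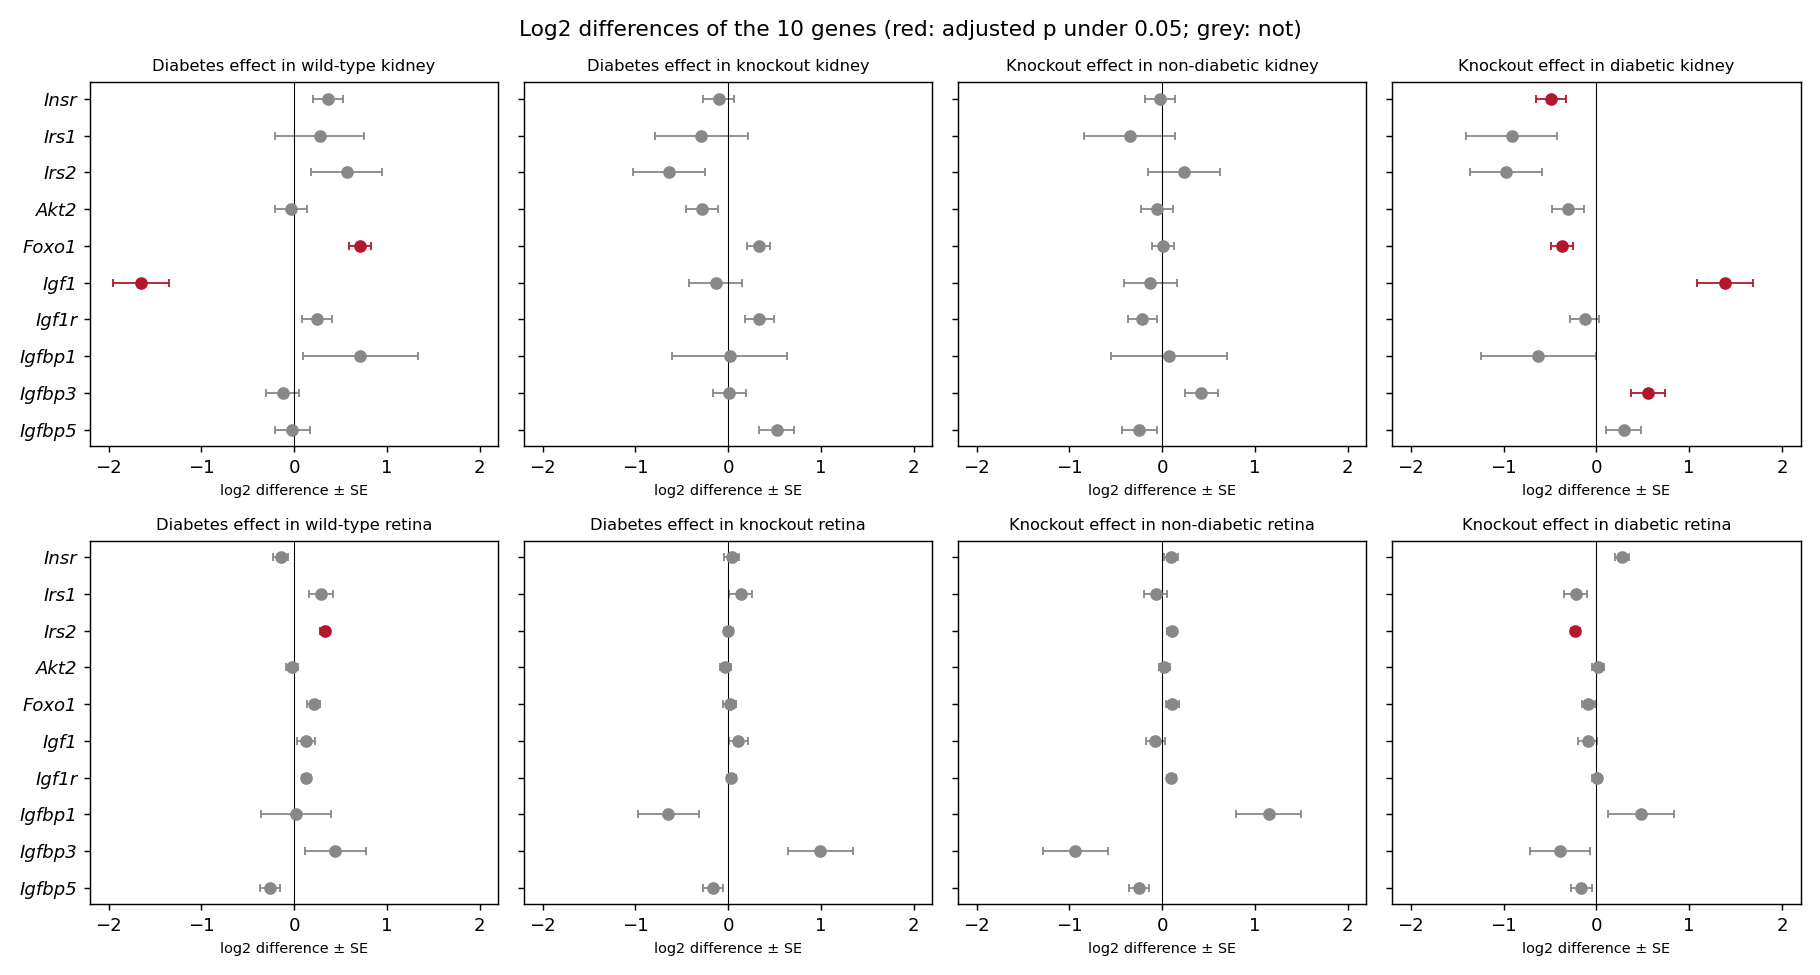
Log2 difference (horizontal axis) of each of the 10 genes in the 4 comparisons of 2 groups per organ, kidney above and retina below. Points are edgeR estimates, bars are ± 1 SE, and red marks an adjusted p under 0.05. Kidney has 2 red points for diabetes in the wild-type and 4 for the knockout in diabetic animals, and retina has Irs2 in each of these comparisons.

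The wider pathway was read from lists written from general knowledge, with earlier results of these data known. Among ligands, receptors and other binding proteins, 12 of 14 were tested in kidney. In diabetic wild-type kidneys Igfbp4, another IGF carrier, rose from 446 ± 38.3 to 997 ± 122 CPM (log2 difference 1.16 ± 0.21, edgeR adjusted p = 0.0065), and Stc1, an inhibitor of the proteases that cut IGFBP4, fell by 1.23 on the log2 scale (adjusted p = 0.0238). These were the 2 called of the 12, beside 7.29% of all genes. In the diabetic knockout Igfbp4 was lower than in the diabetic wild-type, at 560 ± 203 CPM (difference -0.83 ± 0.21, adjusted p = 0.0219). Igf2r, the receptor that clears IGF2, was lower too (-0.96 ± 0.32, adjusted p = 0.0481), and Pappa2, a protease that frees IGF from binding proteins, was higher (1.84 ± 0.42, adjusted p = 0.0135, 3.58 ± 1.13 against 0.991 ± 0.453 CPM). Between diabetic genotypes 1 of the 12 was thus called higher and 2 lower, where 19.7% of all genes were called. Stc1 was the 1 gene called of the 12 for the knockout in non-diabetic kidneys, at -1.62 ± 0.31 (adjusted p = 0.0251). In that comparison 0.435% of all genes were called.

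Of 24 receptor-proximal genes tested, 4 were called for diabetes in the wild-type kidney, where 7.29% of all genes were called. Ptpn1, the phosphatase that removes phosphate from the insulin receptor, went from 27.1 ± 5.64 to 44.3 ± 2.47 CPM (0.71 ± 0.15, edgeR adjusted p = 0.0127), and Pik3r3, a regulatory subunit of phosphoinositide 3-kinase, rose by 0.40 ± 0.10 on the log2 scale (adjusted p = 0.0226). Socs1, a cytokine-induced inhibitor, and Sh2b2, an adaptor of the insulin receptor, fell and are both scarce transcripts. Among those called between diabetic genotypes, where 19.7% of all genes were called, Ptpn1 (-0.67 ± 0.15, adjusted p = 0.0133), Gab1 and Pdpk1 were lower in the knockout, and Socs1 and Socs3 (1.08 ± 0.27, adjusted p = 0.0204) were higher. The median difference of the list was 0.13 in the first comparison and -0.11 in the second, beside -0.05 and 0.04 over all genes.

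Downstream of AKT, 1 of 17 genes was called for diabetes in the wild-type kidney, a share near the 7.29% of all genes. It was Foxo3, a relative of Foxo1, which rose from 42.3 ± 13.4 to 107 ± 16.3 CPM (1.34 ± 0.25, edgeR adjusted p = 0.00742). Foxo3 was lower in the diabetic knockout, at 49.6 ± 15.8 CPM (-1.11 ± 0.25, adjusted p = 0.0137), together with Tbc1d1, Tsc1 and Rptor. These were the 4 called of the 17, where 19.7% of all genes were called. Of 20 FOXO and fasting target genes, G6pc, which releases glucose, rose from 212 ± 53.6 to 1085 ± 111 CPM (2.35 ± 0.34, adjusted p = 0.00151). Klf15, a fasting transcription factor, rose by 0.94 ± 0.20 (adjusted p = 0.0114). They were the 2 called of the 20 for diabetes in the wild-type kidney, where 7.29% of all genes were called. In the diabetic knockout G6pc (-1.45 ± 0.33, adjusted p = 0.0129), Klf15 (-0.81 ± 0.20) and Pck1 (-1.18 ± 0.33, adjusted p = 0.0277) were lower than in the diabetic wild-type, the 3 called of the 20, where 19.7% of all genes were called, so the share of the list was below that of all genes. Sums of proximal tubule markers were also lower there, as given for Foxo1. Of 9 insulin-induced lipid genes tested, Fasn, Acaca and Scd1, which build fatty acids, were lower in diabetic wild-type kidneys (Fasn -3.42 ± 0.77, adjusted p = 0.0159). These were the 3 called of the 9, where 7.29% of all genes were called. The fat markers were lower in the same group, as given above, and their part in the lipid genes was not tested. None of the 5 lists had a call for diabetes in the knockout kidney (6 of 82 genes at an unadjusted p under 0.05 with edgeR).

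Fewer of the genes were called in retina than in kidney. In wild-type retina 1 of the 10 genes was called for diabetes, where 2.48% of all 20979 genes tested were called, and it was Irs2. In diabetic retina 1 of 10 was called between genotypes, where 1.78% of all genes were called, and it was Irs2 again. The median difference of the 10 genes was 0.13 and -0.09, beside 0.00030 and -0.0073 over all genes.

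**Figure D4:**
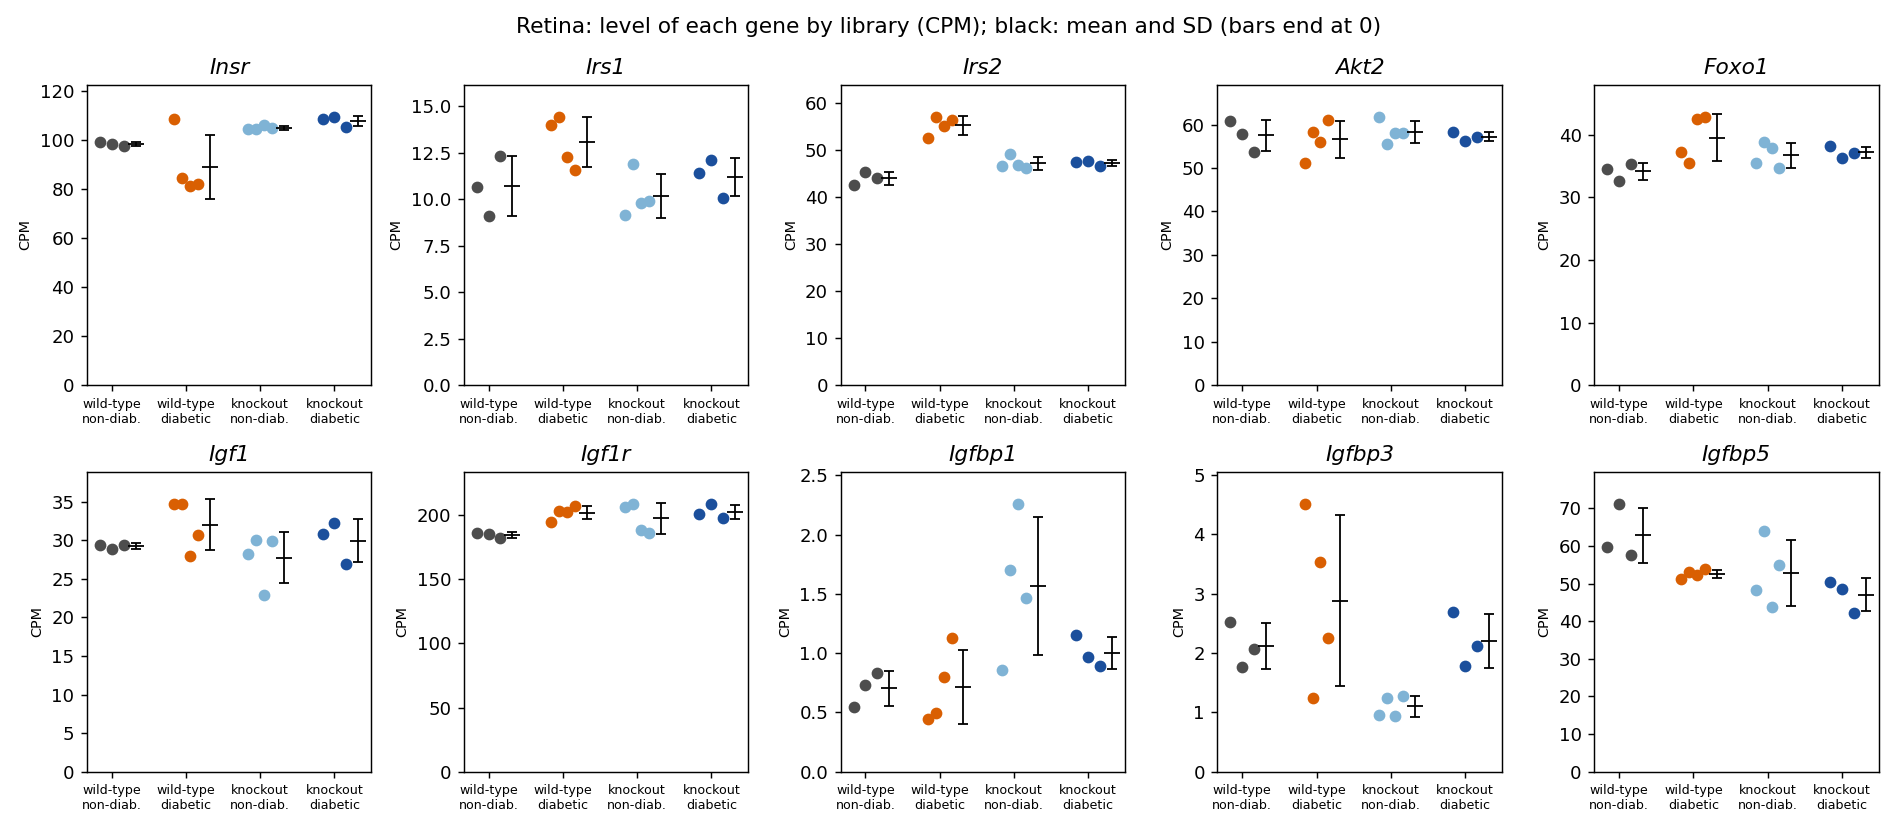
Retinal level of each of the 10 genes in CPM (vertical axis, starting at 0) by group (horizontal axis). Each point is a library (n = 3, 4, 4 and 3 from left to right) and the black mark with bars is the group mean and SD. The 4 diabetic wild-type retinas hold 52.5 to 57.0 CPM of Irs2, above all 10 others, and R844 stands above its group for Insr.

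Irs2, the substrate that links INSR and IGF1R to phosphoinositide 3-kinase, lay at 42.5, 45.3 and 44.2 CPM in wild-type non-diabetic retinas and at 52.5, 57.0, 55.2 and 56.4 CPM in wild-type diabetic retinas. The groups did not overlap and the difference was 0.33 ± 0.05 (edgeR adjusted p = 0.00853), a 1.26-fold higher level. Knockout non-diabetic retinas held 46.7, 49.1, 46.9 and 46.1 CPM and knockout diabetic retinas 47.4, 47.8 and 46.6 CPM, with a log2 difference of 0.0019 ± 0.05. The diabetic genotypes differed by -0.23 ± 0.05 without overlap (edgeR adjusted p = 0.0259). The interaction of -0.33 ± 0.07 was not called by edgeR (adjusted p = 0.102), but was by DESeq2 (adjusted p = 0.0111) and without R844 (edgeR adjusted p = 0.00987).

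Lens markers differed between these groups. They were high in all 3 knockout diabetic retinas and in 2 of 3 wild-type non-diabetic retinas, and low in all 4 wild-type diabetic retinas. They were low too in the knockout non-diabetic retinas (116 to 217 CPM), which held 46.1 to 49.1 CPM of Irs2. With the lens markers as a covariate the wild-type diabetes effect on Irs2 was 0.31, close to the 0.33 without it, but was not called (edgeR adjusted p = 0.211). Nor was it called without R819 (0.35, adjusted p = 0.0501). Leaving out R915, R942 and R954 together leaves R844 as the 1 wild-type diabetic retina, assumed to vary like the other groups, and gave 0.26 (adjusted p = 0.221). The call between diabetic genotypes was lost in 6 of 14 fits without 1 library (highest adjusted p 0.116), in each case on leaving out a knockout diabetic retina or R915, R942 or R954. Cdc34b, Vwa8 and Cfap54 (r = 0.93, 0.93 and 0.92 over 14 retinas, 13923 genes ranked) had the patterns most like that of Irs2.

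Insr in retina turned on R844. The diabetic wild-type retinas held 108, 84.5, 81.2 and 81.9 CPM, of which R844 was the first. Wild-type non-diabetic retinas held 99.2, 98.3 and 97.6 CPM, knockout non-diabetic retinas 104 to 106 CPM and knockout diabetic retinas 105 to 109 CPM. With all libraries the wild-type diabetes difference was -0.14 ± 0.08 (edgeR adjusted p = 0.334) and that between diabetic genotypes 0.27 ± 0.08 (adjusted p = 0.0928, DESeq2 adjusted p = 0.0310). Without R844 both were called, at -0.25 (edgeR adjusted p = 0.00152) and 0.38 (adjusted p = 3.86e-05). Without R915, R942 and R954, which leaves R844 alone in its group, the first turned to 0.14 and the second to -0.0049.

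The other retinal genes were not called. Igf1 lay between 22.9 and 34.7 CPM in all 14 retinas, with differences from -0.10 to 0.13, so the fall seen in diabetic wild-type kidney had no counterpart of that size. Igf1r lay at 182 to 209 CPM and Akt2 at 51.1 to 61.8 CPM. Foxo1 lay at 34.5, 32.6 and 35.3 CPM in wild-type non-diabetic and at 37.3, 35.5, 42.6 and 42.9 CPM in wild-type diabetic retinas, which did not overlap (0.21 ± 0.07, edgeR adjusted p = 0.117). Irs1 lay between 9.10 and 14.4 CPM. Igfbp5 was at 59.7, 71.2 and 57.5 CPM in wild-type non-diabetic and 51.3 to 53.8 CPM in wild-type diabetic retinas (-0.26 ± 0.11, adjusted p = 0.206).

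Igfbp1 and Igfbp3 were scarce in retina, with 9 counts of Igfbp1 and 19 of Igfbp3 in the lowest library. Igfbp1 lay at 0.544, 0.734 and 0.835 CPM in wild-type non-diabetic and at 0.855, 1.70, 2.26 and 1.47 CPM in knockout non-diabetic retinas (1.15 ± 0.35, edgeR adjusted p = 0.148). Igfbp3 lay at 2.52, 1.76 and 2.06 CPM and at 0.956, 1.25, 0.933 and 1.27 CPM in the same groups (-0.94 ± 0.35, adjusted p = 0.251). Neither pair of groups overlapped, and neither gene was called. For the knockout in non-diabetic retina 0 of 10 genes were called by edgeR (3 at an unadjusted p under 0.05, 0 with DESeq2 and 0 with limma), where 1.14% of all genes were called. For diabetes in the knockout retina it was 0 of 10 (1 at an unadjusted p under 0.05, 0 with DESeq2 and 0 with limma), where 0% of all genes were called, beside 80 genes called by DESeq2. The retinal interaction gave 0 of 10 by edgeR (1 at an unadjusted p under 0.05, 1 with DESeq2 and 0 with limma), where 0.124% of all genes were called. In the pathway lists, with 82 genes tested, the 1 call in retina was Rptor, a subunit of the mTOR complex. It rose from 68.5 ± 2.16 to 81.7 ± 4.08 CPM in wild-type diabetic retina (0.25 ± 0.05, edgeR adjusted p = 0.0228). In that comparison 2.48% of all genes were called, so the lists held no excess of calls.

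Levels were compared between genes only per transcript length, in the authors' TPM. In kidney the order was Igfbp3 (61.5 ± 19.8 TPM, SD, n = 16), Igfbp5 (46.2 ± 8.0), Akt2 (21.3 ± 6.09), Igf1r (14.1 ± 2.37), Igfbp1 (9.70 ± 6.65), Insr (7.36 ± 2.31), Foxo1 (5.87 ± 1.77), Irs2 (2.82 ± 1.39), Igf1 (2.39 ± 1.25) and Irs1 (0.278 ± 0.156 TPM). Every neighbour in that order overlapped in range with the next except Igf1 with Irs1. In retina the order was Akt2 (39.4 ± 3.24 TPM, SD, n = 14), Igf1r (30.3 ± 2.42), Insr (18.0 ± 2.17), Igfbp5 (14.9 ± 1.94), Irs2 (12.9 ± 1.43), Igf1 (8.15 ± 1.11), Foxo1 (7.11 ± 0.656), Irs1 (2.06 ± 0.330), Igfbp3 (1.51 ± 0.751) and Igfbp1 (1.23 ± 0.603 TPM). There the ranges of Igf1r and Insr, of Irs2 and Igf1, and of Foxo1 and Irs1 did not overlap, and those of the other neighbours did. Igfbp3 and Igfbp5 thus stood at the top of the kidney order, and Igfbp3 and Igfbp1 at the bottom of the retinal one.

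**Figure D5:**
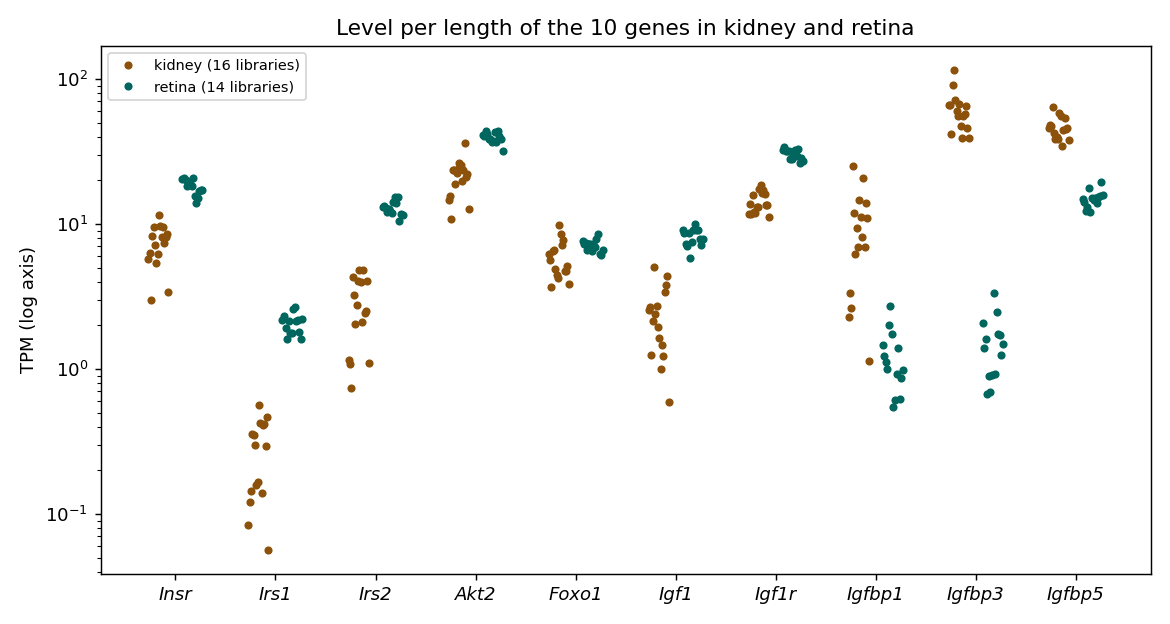
Level of each of the 10 genes in TPM (vertical log axis) in the 16 kidney and 14 retina libraries, each point a library. Igfbp1, Igfbp3 and Igfbp5 lie lower in retina and Irs1, Irs2 and Igf1 higher, and in TPM Insr, Akt2 and Igf1r also lie higher in retina, where the joint fit of counts scaled by the trimmed mean of M values has all 3 lower.

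Between the organs all 10 genes differed in a joint fit of the 30 libraries, where 87.8% of all 23021 genes tested were called, so the count says little about these genes. The sizes carry more. Igfbp3 was at 200 ± 47.4 CPM in kidney and 1.44 ± 0.714 CPM in retina, scaled jointly, a difference of -7.16 ± 0.16 (edgeR adjusted p = 5.5e-25). Igfbp1 differed by -4.74 ± 0.34 and Igfbp5 by -3.37 ± 0.09, while Igf1 (1.25 ± 0.12), Irs1 (1.20 ± 0.19) and Irs2 (0.51 ± 0.15) were higher in retina. These 6 kept their direction and their call under every scaling tried. Insr (-0.42 ± 0.07), Igf1r (-0.70 ± 0.06), Akt2 (-1.08 ± 0.07) and Foxo1 (-1.46 ± 0.05) did not all do so. On the same counts relative to library size alone, Insr was 0.53 and Igf1r 0.28, where the median of all genes moved from 0.14 to 1.10, so the direction of these genes depends on the scaling. Foxo1 stayed lower there (-0.50) and Akt2 was not called (-0.11, edgeR adjusted p = 0.179). On log2(TPM + 1) with limma, which changes the length correction and the test together with the scaling, Insr, Igf1r, Akt2 and Foxo1 were 1.24, 1.06, 0.91 and 0.27, where the median of all genes was 1.04.

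The diabetes effect in the wild-type differed between the organs for 2 of the 10 genes, where 2.98% of all genes differed. It was 1.75 ± 0.34 higher in retina for Igf1 (edgeR adjusted p = 0.00516) and -0.53 ± 0.14 lower for Foxo1 (adjusted p = 0.0415). The Foxo1 call was kept in 14 of 30 fits without 1 library (adjusted p 0.0114 to 0.103) and in 1 of 5 other alternatives, with values from -0.56 to -0.49. The genotype effect in diabetic animals differed for Insr (0.74 ± 0.19, adjusted p = 0.0267) and Igf1 (-1.50 ± 0.34, adjusted p = 0.0134), where 5.03% of all genes differed. With the animal as a replicate block over the 9 animals with both organs, of which 1 is wild-type diabetic, 0 of the 10 genes were called in either comparison. The blocked values were 1.86 (adjusted p = 0.695) and -0.54 (0.847) for Igf1 and Foxo1, and 0.35 (0.693) and -1.50 (0.366) for Insr and Igf1.

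Sequence shared with other genes could bear on a few of the values. Of the 31-base words in the transcripts of Irs1, 69.3% occur in no other annotated gene, and most of the shared words lie in the predicted gene Gm9747. The share was 86.7% for Akt2, which has the pseudogene Akt2-ps, and 92.0% for Foxo1, while the other 7 genes had 97.9% to 100%.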

How the data were processed

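RNA of 16 kidneys and 14 retinas was sequenced on a BGISEQ-500 after Trizol isolation from frozen organs, per the labels' protocols. The submitters' processing notes name Trim Galore 0.6.4, kallisto (listed as 0.4.6) and the build GRCm38.p6. The authors deposited expected counts and TPM for 55385 genes per library. Of the deposited expected counts 35.0% were not whole, and all were rounded. Identifiers were matched to GENCODE M21 (54487 with version, 657 without, 241 unmatched). No 2 libraries held identical values.

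The groups of each organ were fitted together with edgeR 4.0.16 (R 4.3.3): trimmed mean of M values, filterByExpr, quasi-likelihood F test, Benjamini-Hochberg over all genes tested, call at an adjusted p under 0.05. Both organs were fitted jointly for differences between them. Standard errors were the log2 difference divided by the square root of F. CPM used normalised library sizes per organ. In data simulated with the spread of these fits, the median estimate lay close to the changes put in. Those changes were larger than most member differences called within an organ. Outlying libraries and differences in tissue content were not simulated. Alternatives used limma 3.58.1 on log2(TPM + 1), DESeq2 1.42.0, other scalings, no filter, covariates and left-out libraries. The covariate of fat markers without Pck1 and Lpl and scaling by library size only were added after seeing the data.

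The number in a library's name was read as the animal, which pairs kidney with retina. Deviations from group means over 23021 genes correlated between the organs of an animal by 0.0108 to 0.0703 in all 9. Organs of different animals were not compared, so these values do not test the pairing. Named genes were the 10 members, called genes of 5 pathway lists, and the 3 genes most correlated with a called member (at least 1 CPM on average). Members, lists and the libraries left out together were chosen with earlier results of these data known. Nothing but the animal number says how libraries of a group were obtained, so p-values cover the spread between these libraries and counting error. Sex was read from transcripts. Some genes that the rule for named genes gives are not reported here.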

Additional observations from a re-analysis of the deposited data

Results flagged for a closer look

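Within groups of 4, the gap of the extreme library to its neighbour was tested against Dixon's limit for each gene, and 6 of 60 such tests passed it, where chance passes about 1 in 20. They were Insr in wild-type diabetic retina (R844 at 108 CPM, above its group), Irs2 (25.7 CPM), Akt2 (64.1 CPM) and Igfbp1 (32.8 CPM) in K596, above the other diabetic knockout kidneys, Akt2 in wild-type non-diabetic kidney (K812 at 96.7 CPM) and Igf1 in knockout non-diabetic kidney (K559 at 11.9 CPM). K596 thus stood apart in 3 of the 10 genes, K812 held the most fat transcripts of any kidney (1762 CPM summed), and K559 the most of its group (445 CPM). What sets these libraries apart was not tested.

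Between the organs, the wild-type diabetes effect differed for Foxo1 (-0.53, retina minus kidney) and Igf1 (1.75). The genotype effect in diabetic animals differed for Insr (0.74) and Igf1 (-1.50). These came from the interaction of organ and condition in edgeR.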

How the results depend on the processing

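The number of the 10 genes called changed as follows. The share of all genes called can change with a setting too and is not given here. These counts therefore do not set the 10 genes apart from all genes. For diabetes in wild-type kidney, 2 became 0 on log2(TPM + 1) and with the covariate of fat markers without Pck1 and Lpl, and stayed 2 with each library left out. Between genotypes in diabetic kidney, 4 became 1 without a filter, 0 on log2(TPM + 1), 2 with only the groups compared, 1 with the mitochondrial share, 0 with the full fat list as covariate, 2 with that list less Pck1 and Lpl, 1 without K861 and K591, and 1 to 6 with a library left out. In diabetic knockout kidney, 0 became 0 to 1 with a library left out. The kidney interaction went from 0 to 1 with DESeq2 and with sex as a covariate, and to 0 to 3 with a library left out. For diabetes in wild-type retina, 1 became 0 with only the groups compared, with the lens covariate and without R915, R942 and R954, and 0 to 2 with a library left out. Leaving out those 3 retinas, which leaves 1 wild-type diabetic library and takes the spread from the other groups, gave 1 call for the knockout in non-diabetic retina in place of 0. Between genotypes in diabetic retina, 1 became 0 without a filter, on log2(TPM + 1), with only the groups compared, with the lens covariate and without the 3 retinas, 2 with DESeq2, and 0 to 2 with a library left out. The retinal interaction went from 0 to 1 with DESeq2 and 0 to 2 with a library left out. For the wild-type diabetes effect between organs, 2 became 1 without a filter and by library size only, 0 on log2(TPM + 1), 0 with the replicate block, and 1 to 2 with a library left out. For the diabetic genotype effect between organs, 2 became 0 on log2(TPM + 1), by library size only and with the replicate block, and 1 to 4 with a library left out. With the replicate block the mean difference between organs was still called for all 10 genes. The causes were not tested.

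Values that changed sign were few. With the full fat list as covariate, in whose sum Pck1 is the largest term, the diabetic genotype effect in kidney was 0.016 for Irs2 and 1.26 for Igfbp1, and the interaction for Igfbp1 was 0.16. Without R915, R942 and R954, Insr was 0.14 for wild-type diabetes in retina, -0.0049 between diabetic genotypes and -0.10 for the interaction. Retina minus kidney on log2(TPM + 1) was 1.24 for Insr, 0.91 for Akt2, 0.27 for Foxo1 and 1.06 for Igf1r, and by library size only 0.53 for Insr and 0.28 for Igf1r. Of the other values of single genes under alternatives, 921 kept their direction and call, 110 lost the call and 20 gained it. Depth limits Igfbp1 and Igfbp3 in retina and Irs1 in kidney most.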
